A study of Arabidopsis thaliana with 4 samples.

Results

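The genes described are the 5 chloroplast ndh genes that lie outside the ndhH-ndhD operon: ndhC, ndhK, ndhJ, ndhF and ndhB. They were chosen by name and by their annotated intervals, 5 of the 130 gene intervals and of the 86 protein-coding intervals of the chloroplast genome; the annotation holds 11 distinct ndh genes in all. RNA recovered with an antibody against the HA tag was sequenced (RIP-seq, RNA immunoprecipitation and sequencing) from chloroplast stroma, the soluble compartment of the organelle, of Arabidopsis thaliana plants aged 2 weeks. The dPPRrbcL group (2 libraries) came from a transgenic line expressing dPPRrbcL, and the WT group (2 libraries) from Col-0 plants without it. The design asked about binding to rbcL, the gene of the large Rubisco subunit, and about possible off-targets, and the ndh genes belong to the latter. The labels give neither the promoter of the transgene nor the number of lines, and both groups grew under the same light and dark cycle. Nothing states that replicates came from separate plants, so p-values measure only the spread between these libraries, which may be technical. The test used (limma) also draws each feature's variance towards a value pooled over all features tested. A small p-value thus rests largely on that pooled spread, not on the replicates of that feature alone.

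The chloroplast NDH complex resembles respiratory complex I and carries electrons from ferredoxin back to plastoquinone, as one branch of cyclic electron flow around photosystem I. Its chloroplast-encoded subunits fall into a membrane arm and a part that reaches into the stroma. NdhB, NdhC and NdhF belong to the membrane arm, where NdhB and NdhF are related to the proton-pumping subunits of complex I. NdhJ and NdhK belong to the stromal part, and NdhK is related to the bacterial subunit that holds the last iron-sulphur cluster before quinone. PPR proteins, the pentatricopeptide repeat family to which the name dPPRrbcL refers, bind single-stranded RNA in plant organelles.

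All 5 genes lie on the minus strand of the chloroplast chromosome (C) of the TAIR10.1 assembly. The coding interval of ndhC (ArthCp027) spans chrC:50001-50363, that of ndhK (ArthCp026) chrC:49257-49934 and that of ndhJ (ArthCp025) chrC:48677-49153. These 3 genes form 1 operon in the large single copy region, transcribed in the order ndhC, ndhK, ndhJ. The ndhF interval (ArthCp071) spans chrC:110398-112638 in the small single copy region, and its last 37 nt reach into the inverted repeat. The first copy of ndhB (ArthCp068) spans chrC:94941-97164 and has 2 exons separated by an intron of 685 nt. A second copy (ArthCp086) lies at chrC:141485-143708 on the plus strand, has the same sequence and is not an independent measurement.

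The sequences below, from RefSeq's TAIR10.1 chloroplast sequence and in transcript direction, show sites that the text names. The first 3 surround the positions of highest coverage within ndhC (chrC:50093-50122), ndhF (chrC:111880-111909) and ndhB (chrC:95685-95714) in WT replicate 1, with the summit base in capitals. The next pair shows the splice sites of ndhB at chrC:96373-96402 and chrC:95688-95717, with intron bases in capitals. The last pair, in ndhC (chrC:50141-50166) and ndhF (chrC:111559-111584), shows in capitals the longest run of bases shared with the 150 nt before the rbcL start codon.
ndhC summit: cgtgggcaatgagttTcgatgtactggggg
ndhF summit: tttcctcttcatgtaTggttacctgatgcc
ndhB summit: ttcgactctgactctCccactccagtcgtt
ndhB 5′ splice site: gacgtatacgaaggaGTGCGGTTCGTTTGA
ndhB 3′ splice site: CTTTTCGACTCTGACtctcccactccagtc
ndhC shared run: tctagtttTTGTTGTTTTtgatgttg
ndhF shared run: cgaaagctTTGTTGTTTTtaggatct

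The ndhB intron begins with GTGCG and ends with AC. Of 25 annotated chloroplast introns, 15 (60%) begin with GTGNG and 17 (68%) end with AC or AT. The run TTGTTGTTTT is the same 10 bases in ndhC and ndhF and starts 56 nt before the rbcL start codon. In ndhC it starts at nt 206 of the coding sequence, inside the 50 nt bin of highest coverage in all 4 libraries (nt 201 to 250). WT libraries, which lack dPPRrbcL, thus peaked there too. That bin had 463.6 and 436.8 reads per nucleotide in dPPRrbcL, against 57.8 and 75.2 in WT. At nt 1 to 50, away from the run, the values were 273.8 and 293.0 against 13.98 and 13.2. In ndhF the run starts at nt 1063. The search compared the transcript strands only and allowed no mismatch. A shared run of at least 10 bases occurs in 17 of 79 protein-coding genes (21.5%), so it is not rare among them. That share pools genes of all lengths, and a longer gene offers more places for a run. ndhC has 363 nt and ndhF 2241 nt, and no share was computed for genes as short as ndhC. The longest shared runs were 9 bases in ndhK and in ndhB, a length that 53.2% of genes reach, and 7 bases in ndhJ, which 93.7% reach. Whether any of these runs is bound was not tested.

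Depth and makeup of the libraries bear on every value. Averaged over all chloroplast positions, coverage was 10373 and 12917 reads per nucleotide in WT, against 12167 and 12762 in dPPRrbcL. rRNA took 98.4% and 98.8% of it in WT but 90.3% and 91.4% in dPPRrbcL. Protein-coding genes other than rbcL took 0.347% and 0.525% in WT and 3.78% and 4.31% in dPPRrbcL. A change on the scale of the library total therefore contains a shift common to mRNAs, and values are also given as a percentage of the mean coverage of protein-coding genes other than rbcL in the same library. The rbcL mRNA itself had 24398 and 22189 reads per nucleotide in dPPRrbcL, against 674.5 and 777.1 in WT. On the protein-coding scale its log2 difference was 1.66 (SE 0.09, adjusted p = 0.00254, limma with Benjamini-Hochberg adjustment).

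All 5 ndh genes were recovered at 6.97 to 13.5 times the WT level when scaled to the library total, and this was less than for most mRNAs. In log2 terms, without a pseudocount, the median of the 5 genes was 3.38 (range 2.80 to 3.75), beside 4.01 for 78 protein-coding genes. Ranked by that ratio, the genes stood at places 50 (ndhJ), 59 (ndhK), 60 (ndhF), 65 (ndhC) and 73 (ndhB) of 78. In the limma test (log2 of scaled coverage plus 0.1% of the library mean) all 5 passed as higher, in a background where 97.3% of 112 genes tested did so. That count is no property of the ndh genes. No input RNA was analysed here, so binding and abundance in the extract cannot be told apart. Coverage without overlap between groups was as common on that scale, with 97.3% of genes higher and 1.79% lower. No gene of the 112 was called lower, at an adjusted p or at an unadjusted p under 0.05.

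**Figure D1:**
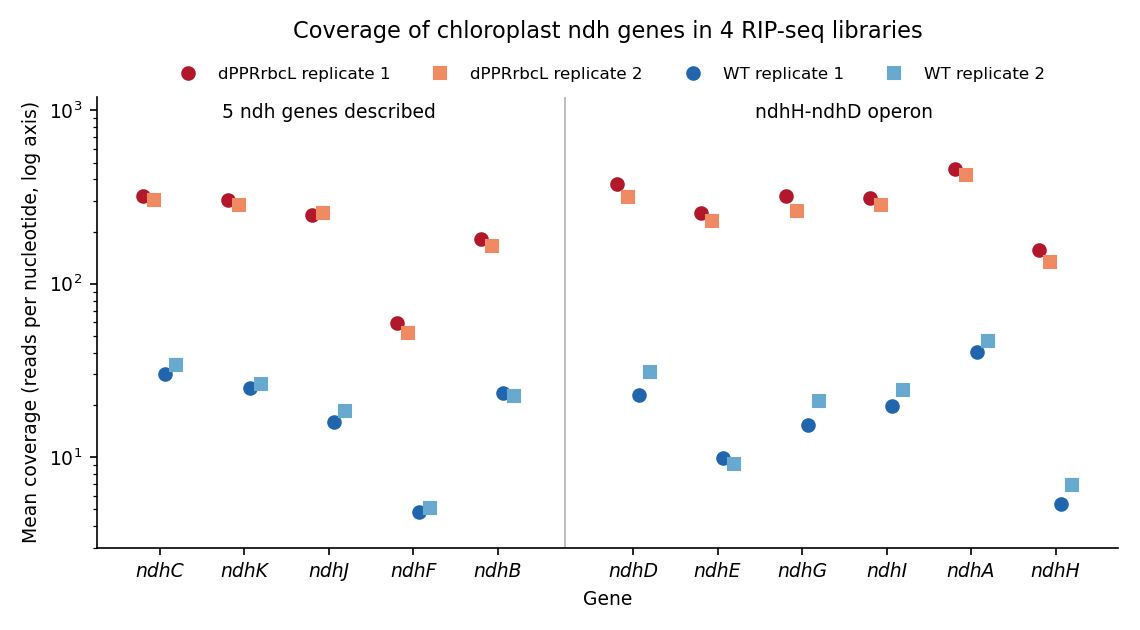
Mean coverage in reads per nucleotide (log axis) of the 5 ndh genes, left, and of the 6 ndh genes of the ndhH-ndhD operon, right, with 1 point for each of the 2 dPPRrbcL and 2 WT libraries. In each gene both dPPRrbcL points lie above both WT points, and ndhF, at 4.8 to 5.1 reads per nucleotide in WT, is the lowest of the 11.

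On the protein-coding scale the 5 genes no longer moved one way. ndhJ passed as higher (1 of 5, where 49.1% of genes were higher), none passed as lower (20.5% of genes were lower), and the other 4 did not pass. Their median log2 difference was 0.14, beside 0.65 over all genes tested. With all coverage except that of rRNA and tRNA genes as the scale, 4 of 5 passed as higher (background 64.3%), ndhB being the exception, with a median of 0.55 beside 1.08. Scaled by the median ratio over genes, 3 of 5 passed as lower (background 32.1%) and none as higher (29.5%), with a median of -0.36 beside 0.07. Under all 4 scalings the median of the 5 genes was thus below that of all genes tested, which was 2.97 on the library scale against 2.78 for the 5. A scaling shifts all genes of a library alike, apart from the pseudocount. The 4 results are therefore 1 comparison repeated and lend each other no weight.

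**Figure D2:**
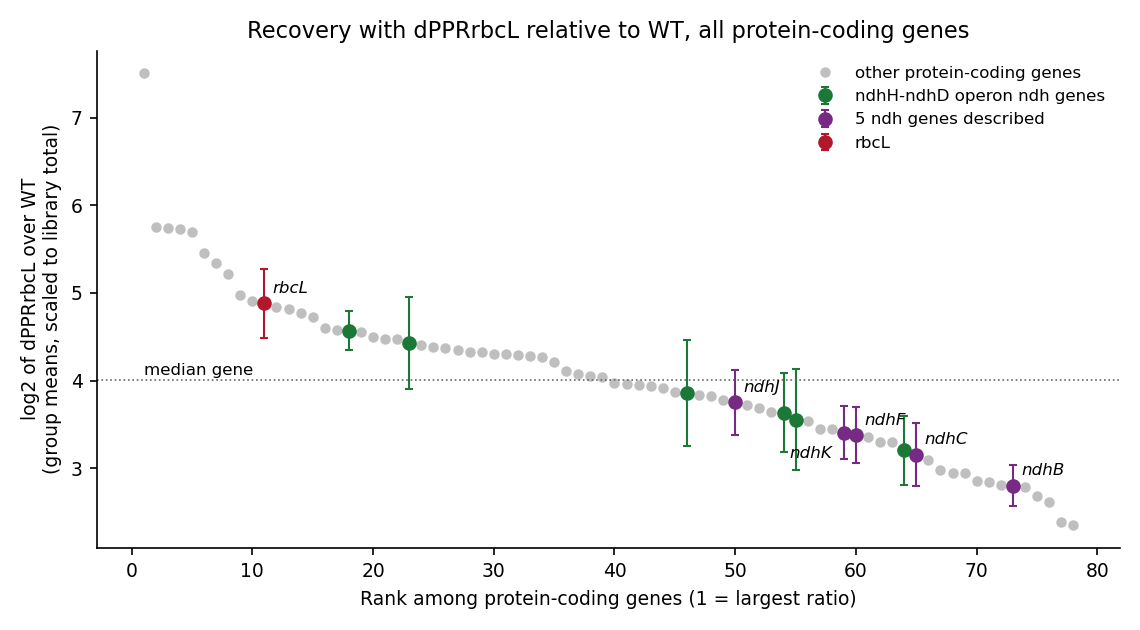
The log2 ratio of dPPRrbcL to WT group means, scaled to library total and without a pseudocount, for 78 protein-coding genes ordered from the largest ratio (rank 1). Bars are SDs over libraries (the square root of the summed variances of the 2 groups); the 5 ndh genes take ranks 50 to 73, below the dotted median of 4.01.

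The first gene of the operon, ndhC, encodes a small membrane arm subunit. Its coverage was 321.2 in dPPRrbcL replicate 1 and 302.9 in replicate 2, against 30.3 in WT replicate 1 and 34.0 in replicate 2 (reads per nucleotide; pairs of values below keep this order). Both dPPRrbcL values were far above both WT values, an 8.91-fold difference on the library scale. The log2 difference was 2.78 (SE 0.18, adjusted p = 3.62e-06, limma). As a share of the protein-coding mean, ndhC stood at 35.7% ± 0.61 (SD, n = 2) in dPPRrbcL, against 37.5% ± 2.1 (SD, n = 2) in WT. These ranges overlapped, and the log2 difference of -0.07 (SE 0.10) did not pass (adjusted p = 0.55, limma).

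The second gene, ndhK, had 304.3 and 284.4 reads per nucleotide in dPPRrbcL, against 24.9 and 26.3 in WT, a 10.6-fold difference on the library scale. Its log2 difference there was 2.94 (SE 0.17, adjusted p = 2.22e-06, limma). Relative to the protein-coding mean the dPPRrbcL libraries lay slightly higher without overlap, at 33.7% ± 0.36 (SD, n = 2) beside 29.95% ± 3.1 (SD, n = 2) in WT. The log2 difference of 0.17 (SE 0.12) did not pass (adjusted p = 0.259, limma). Of the genes tested, 62.5% were higher without overlap on that scale and 26.8% were lower without overlap.

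The last gene of the operon, ndhJ, had the largest difference of the 5. It had 248.9 and 257.3 reads per nucleotide in dPPRrbcL, against 15.9 and 18.5 in WT, with no overlap and a 13.5-fold difference. On the library scale the log2 difference was 3.10 (SE 0.17, adjusted p = 1.74e-06, limma). Relative to the protein-coding mean, ndhJ stood at 29.02% ± 2.4 (SD, n = 2) in dPPRrbcL, against 20.04% ± 0.70 (SD, n = 2) in WT. This log2 difference of 0.53 (SE 0.11) passed (adjusted p = 0.0209, limma), yet it was below the median gene, and under median-ratio scaling the value was -0.04 (SE 0.09, adjusted p = 0.699, limma).

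Within a library the 3 genes can be compared without any scaling. The ndhJ to ndhC ratio was 0.527 and 0.542 in WT and 0.775 and 0.849 in dPPRrbcL, so the end of the operon was closer to its start in level in dPPRrbcL. The ndhK to ndhC ratio moved the same way, from 0.825 and 0.771 in WT to 0.947 and 0.939 in dPPRrbcL. Neither ratio overlapped between groups. These ratios between genes are given as descriptions, since with 2 libraries against 2 an exact two-sided permutation test cannot give a p below 0.333.

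The shape of coverage along ndhC differed between the groups. To compare shapes, each coding interval was cut into 3 equal parts, and coverage of the first was divided by that of the last within a library (the 5′ to 3′ ratio). The first part of ndhC had 254.7 and 262.2 reads per nucleotide in dPPRrbcL, against 12.4 and 11.8 in WT, while its last part had 286.6 and 246.7 in dPPRrbcL and 36.2 and 30.8 in WT. The 5′ to 3′ ratio was 0.976 ± 0.123 (SD, n = 2) in dPPRrbcL, against 0.362 ± 0.030 (SD, n = 2) in WT. The log2 difference of that ratio, 1.35 (SE 0.15), passed over 59 genes tested (adjusted p = 0.00787, limma), where 8.47% of genes were higher and 30.5% lower. It was the second largest of the 59, after rps4 and just ahead of rbcL, whose ratio went from 0.479 ± 0.018 in WT to 1.22 ± 0.016 in dPPRrbcL (SD, n = 2 each). Without dPPRrbcL replicate 2 the ndhC value was 1.23 and did not pass (adjusted p = 0.0539, limma). The ratios of ndhK (log2 difference -0.18, adjusted p = 0.261) and ndhJ (-0.13, adjusted p = 0.867) did not pass in the same limma test.

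Relative to the protein-coding mean, ndhC coverage was higher in dPPRrbcL at the 5′ end and lower at the peak in the middle. In the 25 nt bin centred 212.5 nt past the start codon it was 50.3% and 52.3% in dPPRrbcL. The WT values there were 72.3% and 80.9%. In reads per nucleotide, nt 1 to 50 of the coding sequence had 273.8 and 293.0 in dPPRrbcL and 13.98 and 13.2 in WT. In nt 201 to 250 coverage was 463.6 and 436.8 in dPPRrbcL and 57.8 and 75.2 in WT. Upstream of the start codon coverage continued in all 4 libraries. In the 25 nt bin centred 62.5 nt upstream it was 25.99% and 29.7% of the protein-coding mean in dPPRrbcL and 16.6% and 14.2% in WT, beside 33.1% and 38.0% and 19.8% and 14.4% in the first bin of the coding sequence. At 162.5 nt upstream it was down to 11.3% and 11.02% in dPPRrbcL and to 2.83% and 2.24% in WT. The spacer from ndhC to the tRNA gene trnV (chrC:50364-51198) had 70.9 and 60.3 reads per nucleotide in dPPRrbcL, against 2.6 and 4.1 in WT. Its log2 difference on the protein-coding scale was 0.96 (SE 0.19, adjusted p = 0.0185, limma), where 42.5% of 275 exons, introns and spacers were higher and 21.1% lower. The spacer reached the minimum coverage of 10 only through dPPRrbcL, so it had to be high there to be tested. The annotation marks no untranslated region here, and the coverage is not split by strand.

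**Figure D3:**
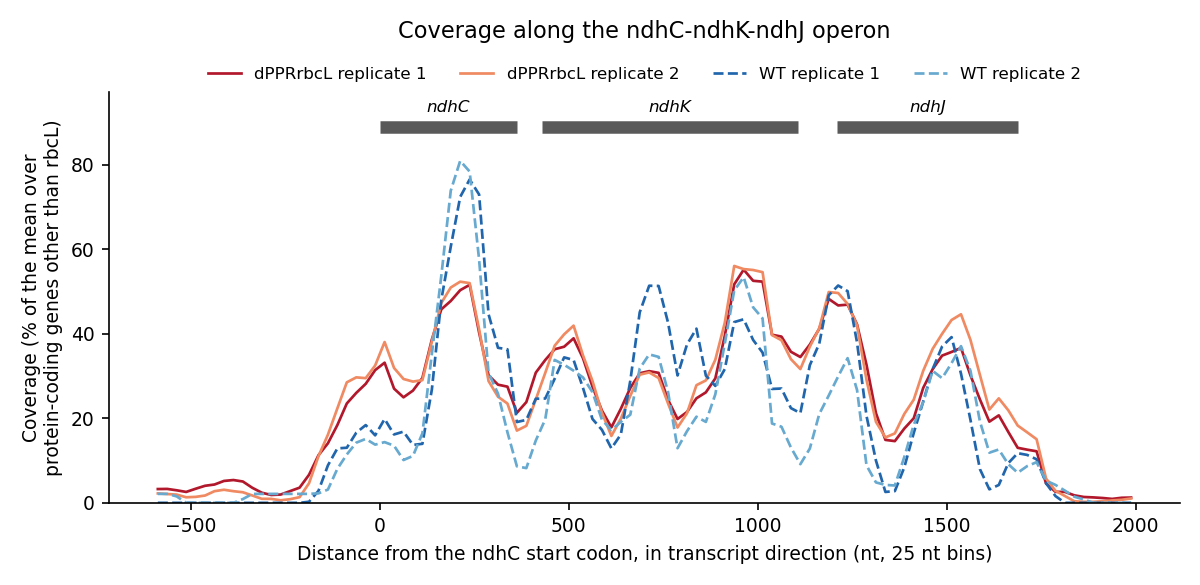
Coverage along the ndhC-ndhK-ndhJ operon in 25 nt bins, as a percentage of the mean over protein-coding genes other than rbcL in the same library, against distance from the ndhC start codon; bars above mark the coding intervals and each line is 1 library. The dPPRrbcL lines lie above the WT lines in the 100 nt around the ndhC start codon and below them at the peak in the middle of ndhC, while along ndhJ all 4 lines share a peak at its start and another further along.

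Coverage continued through the spacers inside the operon. The ndhK to ndhJ spacer (chrC:49154-49256) had 374.7 and 346.3 reads per nucleotide in dPPRrbcL, against 29.3 and 17.5 in WT, which is 1.22 ± 0.0096 and 0.921 ± 0.358 times ndhK (SD, n = 2 each). The ndhC to ndhK spacer (chrC:49935-50000) had 239.8 and 174.7 in dPPRrbcL and 16.6 and 10.5 in WT. Both spacers were higher on the library scale, by 3.33 log2 (adjusted p = 3.14e-15) and 3.03 log2 (adjusted p = 5.73e-14, limma), where 98.5% of segments were. Neither passed on the protein-coding scale, with 0.64 (adjusted p = 0.218) and 0.60 (adjusted p = 0.231, limma). Past the operon, the spacer from ndhJ to trnF (chrC:48248-48676) fell to 32.8 and 30.6 in dPPRrbcL and to 1.6 and 2.6 in WT, 0.125 ± 0.0090 and 0.118 ± 0.029 times ndhJ (SD, n = 2 each). The neighbouring tRNA gene trnF had 22.4 and 18.7 reads per nucleotide in dPPRrbcL, against 0.36 and 1.7 in WT. On the other side, the trnV interval, intron included, had 195.2 and 164.7 in dPPRrbcL and 33.1 and 39.2 in WT, and was lower on the protein-coding scale (log2 difference -1.03, SE 0.10, adjusted p = 0.00439, limma).

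ndhF, which encodes a long membrane arm subunit at the far end of the proton-pumping arm, was the least covered of the 5. It had 59.1 and 52.3 reads per nucleotide in dPPRrbcL, against 4.8 and 5.1 in WT, a 10.4-fold difference on the library scale. In WT 29.5% and 25.9% of its positions had no read and the median coverage was 2, against 53 and 48 in dPPRrbcL. It reached the minimum mean coverage of 10 only through the dPPRrbcL libraries, so it had to differ in order to be tested. The log2 difference was 1.93 (SE 0.16, adjusted p = 1.16e-05, limma), the smallest of the 78 ranked genes in that fit. The pseudocount of 10.4 to 12.9 reads per nucleotide exceeds its WT coverage, and the value was 0.47 with a pseudocount of 1% of the library mean and 3.11 with 0.01%. Relative to the protein-coding mean ndhF stood at 6.37% ± 0.18 (SD, n = 2) in dPPRrbcL, against 5.80% ± 0.62 (SD, n = 2) in WT, and the log2 difference of 0.14 (SE 0.12) did not pass (adjusted p = 0.358, limma).

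WT coverage of ndhF was uneven, and its 2 highest windows of 100 nt lay side by side. The window from chrC:111801-111900, starting at nt 739 of the coding sequence, had 22.5 and 37.6 reads per nucleotide in WT and 79.4 and 84.5 in dPPRrbcL. The adjacent window chrC:111901-112000 had 23.7 and 17.7 in WT and 73.5 and 78.8 in dPPRrbcL. In WT the 50 nt bin of highest coverage held 5.67 times the gene's mean in replicate 1 (nt 701 to 750) and 8.02 times in replicate 2 (nt 751 to 800). In dPPRrbcL the highest bins lay elsewhere, at nt 1 to 50 with 2.57 times the mean and at nt 2101 to 2150 with 2.18 times. On the protein-coding scale both windows were lower in dPPRrbcL, by -1.85 log2 (SE 0.24, adjusted p = 0.0169) and -1.45 log2 (SE 0.32, adjusted p = 0.0444, limma). They are singled out here by their height in WT, a choice that favours lower values in dPPRrbcL. Of the 20 ndhF windows tested, 18 had a WT mean under 10. A window near the 3′ end, chrC:110801-110900, had 65.6 and 51.2 in dPPRrbcL and 0.28 and 1.3 in WT and was higher (log2 difference 3.01, SE 0.68, adjusted p = 0.0461, limma). It reached the minimum coverage of 10 only through dPPRrbcL, so that call was favoured by the filter and supports nothing.

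**Figure D4:**
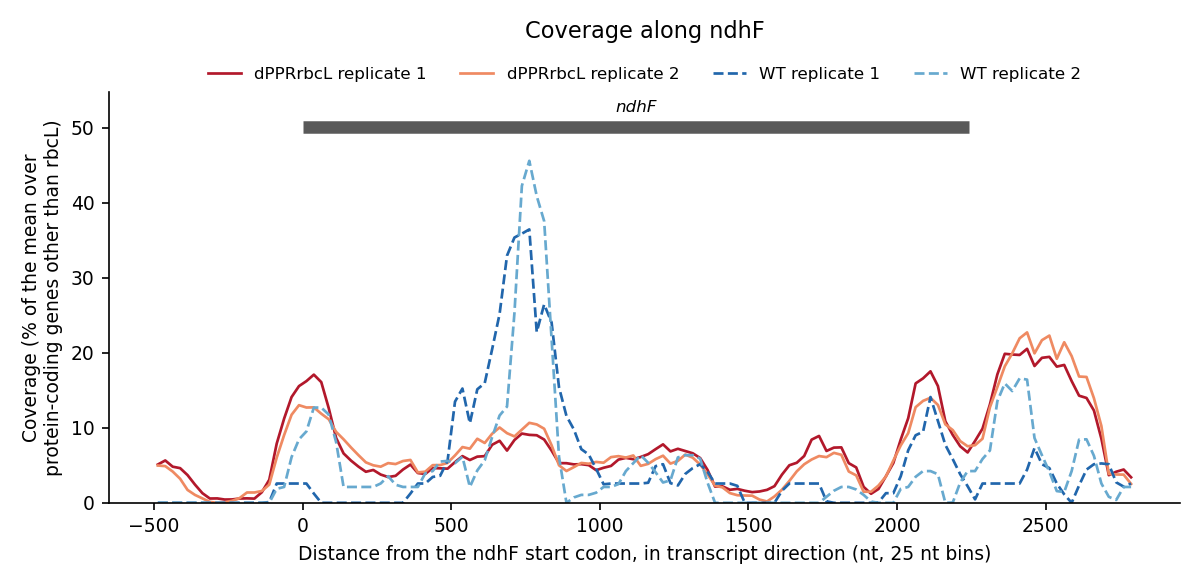
Coverage along ndhF in 25 nt bins, as a percentage of the mean over protein-coding genes other than rbcL in the same library, against distance from the ndhF start codon, with the coding interval marked by the bar. Both WT lines are highest in the windows that start at nt 639 and 739, where the dPPRrbcL lines lack a peak of that height. Within the gene the dPPRrbcL lines are highest near both ends. They are higher still past its 3′ end, at 20.5% and 22.7% in the bin centred at 2437.5 nt, in the ycf1 interval.

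The 5′ to 3′ ratio of ndhF was 2.64 and 6.26 in WT and 0.999 and 1.29 in dPPRrbcL. Its log2 difference of -1.33 (SE 0.33) passed (adjusted p = 0.0432, limma) but did not without dPPRrbcL replicate 1 (-1.15, adjusted p = 0.0778, limma). Nor did it pass with a pseudocount of 0.1 (-1.77, adjusted p = 0.0748) or 10 (-0.34, adjusted p = 0.0923), or with median coverage (-1.05, adjusted p = 0.405, limma). It rests on a WT coverage of the last part of 2.3 and 1.1 reads per nucleotide. Beyond the start codon, the spacer towards rpl32 (chrC:112639-113448) had 41.3 and 28.5 reads per nucleotide in dPPRrbcL, against 0.87 and 1.3 in WT. Its log2 difference on the protein-coding scale was 1.58 (SE 0.21, adjusted p = 0.0071, limma), but it too was deep enough to test only through dPPRrbcL. The neighbour rpl32, on the plus strand, had 55.6 and 69.4 reads per nucleotide in dPPRrbcL, against 2.5 and 0.57 in WT. At the other end the last 39 nt of ndhF overlap the plus-strand interval of ycf1, with 63.9 and 65.6 reads per nucleotide in dPPRrbcL, against 2.5 and 3.2 in WT. Reads from ndhF and ycf1 cannot be told apart there, and downstream coverage belongs to the ycf1 interval (82.6 and 81.6 in dPPRrbcL, 1.8 and 5.4 in WT).

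ndhB, a membrane arm subunit whose gene is interrupted by a group II intron, had the smallest ratio to WT of the 5. Its first copy had 182.1 and 165.6 reads per nucleotide in dPPRrbcL, against 23.6 and 22.7 in WT, a 6.97-fold difference. The log2 difference on the library scale was 2.32 (SE 0.17, adjusted p = 5.36e-06, limma). Relative to the protein-coding mean ndhB was lower in dPPRrbcL without overlap, at 19.9% ± 0.17 (SD, n = 2) beside 27.2% ± 4.5 (SD, n = 2) in WT. That log2 difference of -0.44 (SE 0.15) did not pass (adjusted p = 0.0694, limma). The second copy, with 185.9 and 169.2 in dPPRrbcL and 22.6 and 26.5 in WT, gave -0.49 (SE 0.09) and passed as lower (adjusted p = 0.0153, limma).

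The direction thus held in both copies, but the call depended on how shared reads were placed. The copies differed by a factor of 0.958 and 1.17 in WT and of 1.02 and 1.02 in dPPRrbcL. Compared within a library, ndhB stood at 0.779 and 0.666 times ndhC in WT and at 0.567 and 0.547 times in dPPRrbcL, the opposite order to ndhJ, ndhK and ndhF. ndhF relative to ndhC was 0.160 and 0.149 in WT and 0.184 and 0.173 in dPPRrbcL.

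Exons and intron of ndhB were all recovered. Exon 1 (chrC:96388-97164) had 145.8 and 136.0 reads per nucleotide in dPPRrbcL, against 13.3 and 17.3 in WT. The intron (chrC:95703-96387) had 155.1 and 156.3 in dPPRrbcL and 27.6 and 16.9 in WT. Exon 2 (chrC:94941-95702) had 243.3 and 204.3 in dPPRrbcL and 30.4 and 33.3 in WT. Coverage of the intron was thus of the order of that of the exons in every library, and the files do not tell unspliced RNA, free intron and antisense RNA apart. On the library scale the log2 differences were 2.40, 2.23 and 2.33, all past the limma test. On the protein-coding scale exon 2 was lower (-0.54, SE 0.14, adjusted p = 0.0338), while exon 1 (-0.13, adjusted p = 0.375) and the intron (-0.50, adjusted p = 0.301, limma) did not pass.

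The ratio of intron to exon coverage in ndhB was 1.27 and 0.669 in WT and 0.799 and 0.920 in dPPRrbcL. Among 23 gene intervals with an intron, both inverted repeat copies included, 13% of intron to exon ratios were higher and 21.7% lower. For ndhB the groups overlapped, and the log2 difference of -0.11 (SE 0.28) did not pass (adjusted p = 0.728, limma). The WT replicates decide this value: it was 0.33 without WT replicate 1 (adjusted p = 0.0244) and -0.55 without WT replicate 2 (adjusted p = 0.000329, limma), with the lone WT library assumed to vary like the other group. With both copies averaged, a choice made after seeing the data, the ratio was 1.40 and 0.892 in WT and 0.764 and 0.846 in dPPRrbcL (log2 difference -0.47, SE 0.22, adjusted p = 0.111, limma). The second copy alone gave -0.79 (SE 0.21, adjusted p = 0.0124, limma). For ndhA, the other chloroplast ndh gene with an intron, the log2 difference was -0.51 (SE 0.19, adjusted p = 0.0622, limma).

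Coverage of ndhB in WT peaked where exon 2 begins. The window chrC:95601-95700, just downstream of the 3′ splice site, had 99.5 and 70.5 reads per nucleotide in WT and 319.5 and 273.8 in dPPRrbcL. The next window, chrC:95501-95600, had 35.5 and 43.4 in WT and 241.2 and 223.6 in dPPRrbcL. Both were lower in dPPRrbcL on the protein-coding scale, by -1.53 log2 (SE 0.34, adjusted p = 0.044) and -0.78 log2 (SE 0.15, adjusted p = 0.0328, limma). The first of them is singled out as the WT peak, a choice that favours a lower value in dPPRrbcL. The highest single base lay at nt 1466 of the gene in WT replicate 1, in the summit sequence shown above, and at the same base in dPPRrbcL replicate 1. It lay at nt 1512 in WT replicate 2 and at nt 1500 in dPPRrbcL replicate 2, all inside exon 2. Exon 2 stood at 2.29 and 1.92 times exon 1 in WT and at 1.67 and 1.503 times in dPPRrbcL, without overlap. The 5′ to 3′ ratio of ndhB, intron included, had a log2 difference of 0.38 that did not pass (adjusted p = 0.0841, limma). In the second copy it was 0.47 and passed (adjusted p = 0.0358, limma), so this call too differed between the copies.

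**Figure D5:**
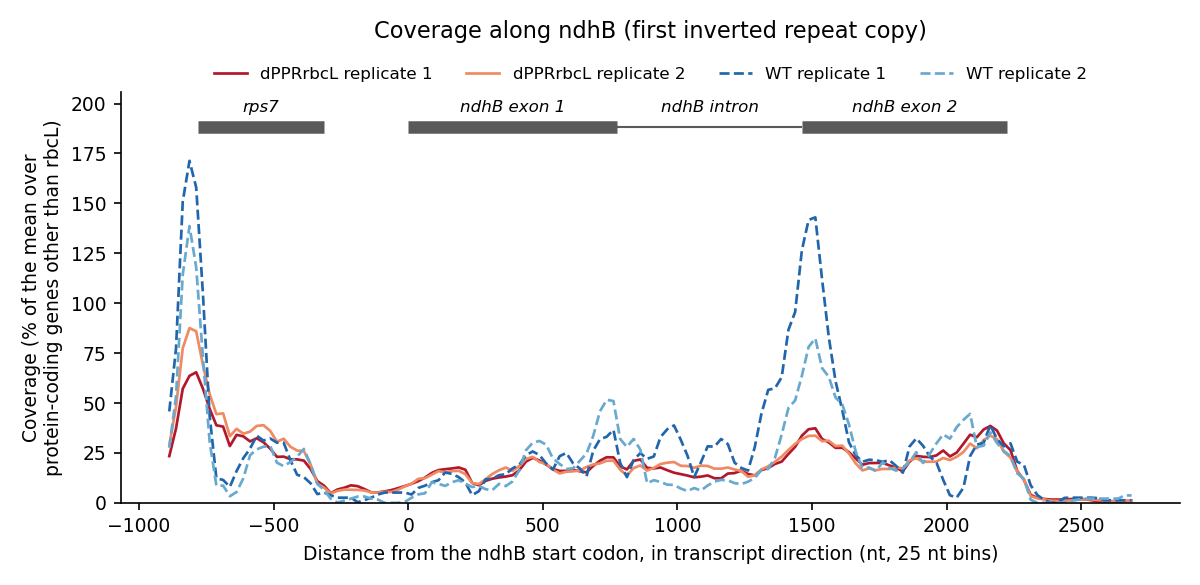
Coverage along the first copy of ndhB in 25 nt bins, as a percentage of the mean over protein-coding genes other than rbcL in the same library, against distance from the ndhB start codon; bars mark the exons and rps7, and the thin line the intron. Within ndhB both WT lines peak at the start of exon 2, above both dPPRrbcL lines, and the lines cross along exon 1 and the rest of exon 2. The WT lines are higher still just upstream of rps7. In the bin centred 812.5 nt before the ndhB start codon they reach 171.3% and 138.6%, against 63.6% and 87.5% in dPPRrbcL.

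Upstream of ndhB lies rps7, which encodes a protein of the small ribosomal subunit and is transcribed in the same direction. It had 270.7 and 296.7 reads per nucleotide in dPPRrbcL, against 20.8 and 21.1 in WT, and on the protein-coding scale its log2 difference of 0.41 did not pass (adjusted p = 0.0933, limma). The spacer between rps7 and ndhB (chrC:97165-97477) had 61.9 and 50.9 in dPPRrbcL and 2.7 and 1.4 in WT, so coverage between the genes was below that of both in every library. Downstream, coverage of ndhB stayed at or above 50% of its mean for 68 to 74 nt in the 4 libraries. The spacer from there to the tRNA gene trnL (chrC:94357-94940) had 32.4 and 27.8 in dPPRrbcL and 3.9 and 3.5 in WT, and trnL itself, at 0 to 7.8 reads per nucleotide, was too low to test.

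Across the 5 genes, 54 of 56 windows of 100 nt were deep enough to test. All 54 were higher on the library scale, where 95.7% of 1373 windows were higher and 0.874% lower. Of the 54, 22 had a mean WT coverage under the minimum of 10 and were tested only through dPPRrbcL, 18 of them in ndhF. On the protein-coding scale 1 was higher (background 24%) and 4 were lower (13.2%), the 5 windows given above in ndhF and ndhB. The 1 higher window is among those 22. None of the 13 windows in ndhC, ndhK and ndhJ passed on that scale. Profiles over 50 nt bins correlated between the group means at 0.81 over 7 bins in ndhC, 0.70 over 13 in ndhK and 0.96 over 9 in ndhJ. In ndhF and ndhB, with 44 bins each, the values were 0.78 and 0.86. Single libraries of different groups correlated less evenly, at 0.42 to 0.79 in ndhK and 0.44 to 0.65 in ndhF. The ranges were 0.56 to 0.88 in ndhB, 0.60 to 0.94 in ndhC and 0.83 to 0.95 in ndhJ. The WT replicates correlated at 0.53 in ndhK and 0.55 in ndhF, the dPPRrbcL replicates at 0.99 and 0.91. These are descriptions, since neighbouring bins share reads and all libraries share the base composition of the gene.

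The other chloroplast subunits of the complex, encoded in the ndhH-ndhD operon, served as the nearest comparison. Their log2 ratios without a pseudocount had a median of 3.75 (range 3.20 to 4.57), beside 3.38 for the 5 genes, so the ranges overlapped. On the protein-coding scale 4 of the 6 were higher, where 49.1% of all genes tested were. They were ndhE (1.32, adjusted p = 0.00767), ndhH (1.21, adjusted p = 0.00299), ndhG (0.65, adjusted p = 0.0171) and ndhI (0.42, adjusted p = 0.0209, limma). The last part of ndhE had 161.4 and 154.7 reads per nucleotide in dPPRrbcL, against 7.69 and 3.75 in WT. That of ndhH had 154.6 and 118.2 in dPPRrbcL, against 4.46 and 5.95 in WT. These WT values are under the minimum of 10, so the filter may have favoured the calls of ndhE and ndhH. ndhD (0.35, adjusted p = 0.0649), ndhA (-0.02, adjusted p = 0.856) and psaC (0.06, adjusted p = 0.84, limma), a photosystem I gene in that operon, did not pass. The 6 operon genes together held 2.16% and 2.17% of protein-coding coverage other than rbcL in WT and 2.65% and 2.55% in dPPRrbcL. The 5 genes described here held 1.43% and 1.198% in WT and 1.21% and 1.22% in dPPRrbcL, with overlap. The difference between the 2 sets of genes was not tested.

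The protein-coding genes nearest to the mean profile of the 5 over the 4 libraries, by Euclidean distance among 74 candidates, were rpl23 (0.058), rps3 (0.073), clpP (0.153), ycf1 (0.155, the copy at the end of the inverted repeat) and accD (0.177). The distances of the 5 genes from their own mean were 0.187 for ndhC, 0.303 for ndhB, 0.323 for ndhK, 0.493 for ndhJ and 0.686 for ndhF. The profiles used log2 values on the library scale with the pseudocount, which compresses genes as low in WT as rps3, at 1.5 and 4.0 reads per nucleotide.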

How the data were processed

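The authors deposited, for each of 4 libraries (2 dPPRrbcL, 2 WT), the coverage of chloroplast positions 1 to 154478 as reads per nucleotide, per the file headers, in whole numbers with no stated normalization. Mapper, build and strand use are not given in the sources used here; the length matches the TAIR10.1 chloroplast sequence, whose RefSeq annotation was used. Reads per library are unknown, so no counting interval was computed.

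Interval means were scaled to the mean coverage of their library, 0.1% of that mean was added (a share of 1%, used earlier on these data, exceeds the WT coverage of the 5 genes), and log2 values were tested with limma 3.58.1 in R 4.3.3, without covariates, where mean coverage reached 10, with Benjamini-Hochberg adjustment at 0.05 over all features, both inverted repeat copies included. Ratios within libraries used a pseudocount of 1 read per nucleotide in the limma test, and 5′ to 3′ ratios used genes of at least 300 nt. The fit was also run on simulated data, in which a subset of features changed, as many up as down. In the real data 97.3% of genes were higher on the library scale, so that run does not show how the fit behaves here. Other scalings, pseudocounts, filters, a replicate block and leaving out each library were alternatives. Named were the 5 genes, the other ndh genes, psaC, rbcL, annotated neighbours and the 5 nearest profiles. Members and lists were chosen with earlier results of these data known.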

Additional observations from a re-analysis of the deposited data

How the results depend on the processing

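Scaling set the direction. In the order median ratio, coverage outside rRNA and tRNA genes and protein-coding coverage, ndhB moved from 2.32 to -0.86, -0.013 and -0.44, its exon 1 to -0.51, 0.29 and -0.13, its intron to -0.84, -0.072 and -0.50 and its exon 2 to -0.91, -0.11 and -0.54. Median ratio and protein-coding coverage gave -0.58 and -0.069 for ndhC, -0.36 and 0.17 for ndhK, -0.25 and 0.14 for ndhF, and -0.38 and -0.30 for the ndhB to trnL spacer; the median ratio gave -0.039 for ndhJ. In the same order of 3 scalings, genes higher numbered 33, 72 and 55 in place of 109 and lower 36, 17 and 23 in place of 0. Segments higher numbered 82, 162 and 117 in place of 271 and lower 87, 43 and 58 in place of 0. Windows higher numbered 303, 543 and 330 in place of 1314 and lower 307, 150 and 181 in place of 12.

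An intensity trend gave 3 genes and 3 segments lower. Windows higher were 739 at a minimum coverage of 100, 2605 with windows of 50 nt and 656 with 200 nt; windows lower were 6 with a pseudocount of 0.01% and 28 with windows of 50 nt. With median coverage the ndhB intron ratio was 0.066, the 5′ to 3′ log2 difference 0.12 for ndhK, 0.21 for ndhJ and -1.05 for ndhF (no longer past the threshold), and intron ratios lower were 1 in place of 5, 5′ to 3′ ratios higher 3 in place of 5 and lower 6 in place of 18. For the 5′ to 3′ difference of ndhJ a pseudocount of 10 gave 0.0089 and comparing the first and last 50% of the gene 0.12. For that of ndhF pseudocounts of 0.1 and 10 gave -1.77 and -0.34, neither past the threshold. Intron ratios lower were 3 and 8 with these pseudocounts, and 5′ to 3′ ratios higher 12 with the larger.

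Leaving out each library gave 0 to 1 genes and 0 to 1 segments lower, 7 to 17 windows lower, 3 to 6 intron ratios higher and 2 to 11 lower, and 2 to 13 5′ to 3′ ratios higher and 6 to 25 lower. The ndhB intron ratio ranged from -0.55 to 0.33, and 5′ to 3′ differences from 1.23 to 1.48 (ndhC), -0.73 to 0.47 (ndhJ), -1.73 to -0.92 (ndhF) and 0.30 to 0.46 (ndhB). The cause of these changes was not tested. All 5 genes kept their call on the library scale without each library, from 1.83 to 3.25. A minimum coverage of 100 left ndhF and ndhB out.

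The groups share replicate numbers, but same-numbered libraries did not deviate together (correlation over genes -0.40), so the numbers were not taken as a pairing. A replicate block left 105 genes higher and all 5 calls in place, with 3 intron ratios lower and 8 5′ to 3′ ratios higher. The crossed replicate block, added after seeing the data, gave 109 genes higher, with 1 gene and 1 segment lower. Averaging both ndhB copies, also added later, gave 2.30 for ndhB.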
